A study of Homo sapiens with 25 samples.

Results

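The hnRNP and SR genes encode the most abundant RNA-binding regulators of splicing, and 33 of them were examined in HCT116, an established human colorectal carcinoma cell line. They were 19 hnRNP genes, 12 SR genes (SRSF1 to SRSF12) and the SR-like TRA2A and TRA2B, out of 19970 protein-coding genes on chromosomes 1 to 22 and X. The genes were listed by family name, and this set of families was chosen by tag peaks of FOXD2 already seen at several of the genes. FOXD2 is a forkhead transcription factor. Counts of tag peaks at these genes are therefore given as a description, with no test. Chromatin immunoprecipitation with sequencing gave 25 libraries, of which 18 had a list of peaks and 7 inputs were not analysed here. Control cells carried the empty pSin lentiviral vector and FOXD2 cells the full-length FOXD2 coding sequence in pSin, both kept under puromycin. H3K4me1 and H3K27ac, which mark enhancers and active chromatin, and MLL4 (KMT2D), a writer of H3K4me1, had 2 lists per group. H3K4me3, a mark of active promoters, had 1 list per group. FOXD2 carrying FLAG and 6xHis tags was expressed from the plasmid pcDNA3.1-FOXD2-3xflag-6xhis and mapped with antibodies to either tag, with 2 lists each. All groups shared the HCT116 background, and FOXD2 was supplied from a vector in every FOXD2 and tag library. A tag list from cells without the tagged protein was not analysed here.

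hnRNP proteins coat nascent transcripts and often block the use of nearby splice sites, whereas SR proteins bind exonic enhancers through RNA recognition motifs and recruit the spliceosome through arginine-serine domains. Both are expressed in nearly all dividing cells. Many of their genes are autoregulated through conserved poison exons or retained introns, whose inclusion sends the transcript to nonsense-mediated decay. The question asked of the tag peaks was whether they lay at H3K4me3, a mark of promoters, or over the body of each gene. A tag site is a region in which peaks of all 4 tag lists merge. It is at H3K4me3 if it overlaps peaks of both H3K4me3 lists and off H3K4me3 if it overlaps none. A gene's body is its RefSeq span without H3K4me3 peaks of either list.

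The promoter sequences below show what lay under or beside the tag peaks at the gene starts. Each runs from 250 bases before to 50 bases after the RefSeq start (GRCh38.p14, the hg38 assembly), 5′ to 3′ on the gene's strand. RefSeq windows were matched for 30 of the 33 members, and HNRNPA1, SRSF2 and TRA2A had no entry. The SRSF11 window lies 15.7 kb inside the RefSeq span, whereas distances and positions along the gene are counted from the outer 5′ end of the span. A tag site covered the windows of SRSF3 (chr6:36594112-36594411, plus strand) and HNRNPA2B1 (chr7:26200697-26200996, minus strand) in full. It covered 239 bases of the window of SRSF11 (chr1:70221130-70221429, plus strand) and 67 bases of that of HNRNPD (chr4:82373942-82374241, minus strand). The windows of HNRNPC (chr14:21269393-21269692, minus strand) and TRA2B (chr3:185937965-185938264, minus strand) lay under no tag peak of any list, and are shown because both genes were densely covered further downstream. SRSF8 (chr11:95066627-95066926, plus strand) is shown, chosen after its values were seen, because it alone held the short forkhead motif. Capitals mark TAAACA on either strand (TGTTTA on the printed strand where the motif is on the other).
SRSF3: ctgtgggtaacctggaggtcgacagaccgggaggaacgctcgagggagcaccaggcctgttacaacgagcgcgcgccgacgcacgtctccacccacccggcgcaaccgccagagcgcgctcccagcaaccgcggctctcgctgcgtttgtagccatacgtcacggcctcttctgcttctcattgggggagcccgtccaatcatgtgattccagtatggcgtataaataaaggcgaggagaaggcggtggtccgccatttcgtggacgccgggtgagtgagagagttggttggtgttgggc
HNRNPA2B1: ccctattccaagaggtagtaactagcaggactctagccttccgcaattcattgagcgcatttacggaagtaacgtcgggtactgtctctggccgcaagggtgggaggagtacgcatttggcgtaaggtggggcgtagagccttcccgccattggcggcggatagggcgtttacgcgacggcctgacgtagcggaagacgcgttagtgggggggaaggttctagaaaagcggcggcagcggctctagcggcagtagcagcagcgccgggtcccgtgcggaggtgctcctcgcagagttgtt
SRSF11: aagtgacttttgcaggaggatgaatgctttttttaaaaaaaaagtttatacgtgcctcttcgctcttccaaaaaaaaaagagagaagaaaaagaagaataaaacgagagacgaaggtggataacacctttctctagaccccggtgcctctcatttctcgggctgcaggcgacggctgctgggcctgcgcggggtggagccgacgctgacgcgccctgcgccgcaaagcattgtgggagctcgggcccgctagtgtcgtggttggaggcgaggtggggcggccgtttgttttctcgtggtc
HNRNPD: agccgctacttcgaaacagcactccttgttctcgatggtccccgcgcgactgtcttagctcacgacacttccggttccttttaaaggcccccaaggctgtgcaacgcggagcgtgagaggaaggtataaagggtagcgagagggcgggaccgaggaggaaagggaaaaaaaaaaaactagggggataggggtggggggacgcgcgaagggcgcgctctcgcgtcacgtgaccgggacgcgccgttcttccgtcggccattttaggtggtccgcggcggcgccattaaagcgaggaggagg
HNRNPC: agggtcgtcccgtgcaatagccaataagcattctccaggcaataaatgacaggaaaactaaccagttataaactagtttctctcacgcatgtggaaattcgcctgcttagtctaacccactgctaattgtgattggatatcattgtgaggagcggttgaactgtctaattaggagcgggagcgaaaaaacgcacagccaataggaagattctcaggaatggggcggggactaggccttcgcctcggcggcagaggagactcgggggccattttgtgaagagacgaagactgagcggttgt
TRA2B: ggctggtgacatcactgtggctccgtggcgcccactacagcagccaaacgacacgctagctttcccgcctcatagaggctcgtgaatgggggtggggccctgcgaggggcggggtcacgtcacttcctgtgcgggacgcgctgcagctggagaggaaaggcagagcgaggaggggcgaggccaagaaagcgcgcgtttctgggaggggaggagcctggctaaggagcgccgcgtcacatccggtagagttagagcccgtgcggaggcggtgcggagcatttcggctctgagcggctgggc
SRSF8: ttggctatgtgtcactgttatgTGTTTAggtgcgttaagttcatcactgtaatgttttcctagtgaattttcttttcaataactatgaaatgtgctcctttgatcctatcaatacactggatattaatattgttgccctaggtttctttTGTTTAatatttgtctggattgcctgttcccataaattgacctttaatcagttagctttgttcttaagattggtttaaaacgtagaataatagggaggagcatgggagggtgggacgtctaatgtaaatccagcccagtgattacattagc

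The longer forkhead motif GTAAACA, searched on both strands, occurred in 0 of the 30 member windows and in 2.62% of the 15812 windows of all genes. The shorter TAAACA, which is contained in the longer motif, occurred in 1 of 30 member windows (SRSF8, with 2 matches) and in 8.95% of all windows. SRSF8 had no tag site. The windows of SRSF3, HNRNPA2B1, SRSF11 and HNRNPD printed above hold neither motif. The GC content of member windows ranged from 36.0% in SRSF8 to 77.0% in SRSF12, with a median of 65.7% against 62.7% for all windows. H3K4me3 peaks of both lists lay over 27 of the 30 windows, and tag sites lay over 4 of them in full or in part. Single tag lists placed their peaks within these sites unevenly: all 4 lists had a peak over the SRSF3 window, 2 over the windows of SRSF11 and HNRNPD, and 1 over that of HNRNPA2B1. Tag peaks were not confined to windows under a tag site, as only 14 of the 30 windows had no tag peak in any list. Peaks of 3 lists lay over the windows of HNRNPH3 and HNRNPUL1. Peaks of 2 lists lay over those of HNRNPA3, HNRNPK, HNRNPU, HNRNPUL2 and SRSF1, also without a tag site. The sequences of sites in gene bodies, and whether those sites lie in exons or introns, were not analysed here.

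The tag lists held between 26942 peaks (6xHis replicate 2) and 48194 peaks (6xHis replicate 1), the H3K4me1 lists between 95756 and 129887, the H3K27ac lists between 85122 and 141008, and the H3K4me3 lists 22975 and 24528. The MLL4 lists held between 4676 (FOXD2 replicate 2) and 22493 peaks. H3K4me3 peaks of both lists lay within 5 kb of 9 of 10 colon epithelial marker genes, with VIL1 the exception, but also of 3 of 6 markers of blood, 4 of 6 of fibroblasts or endothelium and 4 of 5 of neural cells. Over the RefSeq promoter windows themselves, both lists had H3K4me3 at 5 of 5 epithelial markers with an entry, 0 of 3 of blood, 0 of 1 of fibroblasts or endothelium and 1 of 2 of neural cells. Read depth was not stated in any source used, so no interval could be set on any coverage.

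Of the 33 genes, 26 had a tag site within 5 kb of their span, against 15.5% of all protein-coding genes and 21.4% of the 14020 genes with H3K4me3 in both lists. Tag sites off H3K4me3 were found at 23 members (8.63% of all genes) and tag sites at H3K4me3 at 10 members (8.65% of all genes). Among genes with H3K4me3 in both lists, which include all 33 members, 11.7% had a site off it. Sites lay only off H3K4me3 at 16 members, both at and off it at 7, and only at it at 3, namely HNRNPF, HNRNPDL and SRSF11. Any overlap counted as at H3K4me3, and some of these sites lay mostly outside it. The HNRNPF site lay 67.0% outside H3K4me3 peaks, 1 SRSF1 site 69.7% and 1 TRA2B site 78.0%. Not every site at H3K4me3 lay at the member's own start. Counted from the outer 5′ end of the span, 8 of the 13 such sites began within 5 kb of the start, at 6 members. The other 5 lay farther from that end. They were 8.75 kb to 11.1 kb away at HNRNPF, 15.5 kb at SRSF11, and 17.0 kb to 20.6 kb at SRSF1 and SRSF10. Of the 2 SRSF1 sites 1 lay over VEZF1, and the SRSF10 site lay over PNRC2. The SRSF11 site overlapped 239 bases of that gene's own RefSeq promoter window, so it lay at an annotated start of the member. There was no tag site at HNRNPA0, HNRNPAB, HNRNPL, HNRNPLL, HNRNPUL2, SRSF8 and SRSF12. Members had a median span of 14.8 kb against 24.2 kb for all genes, so the members were the shorter genes.

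How a site is defined moved these counts. With each list required to cover 50% of the merged region, 9 members had a site, all 9 had one off H3K4me3, and 0 had one at H3K4me3, against 6.54%, 3.87% and 2.78% of all genes. With at least 3 of the 4 lists required, 29 members had a site and 19 had one at H3K4me3, against 28.4% and 15.8% of all genes.

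HNRNPC, whose protein binds uridine tracts and keeps cryptic exons out of transcripts, carried the most tag peaks of the members. Tag peaks covered 34.8 kb and 18.0 kb in the 6xHis lists and 29.6 kb and 24.3 kb in the FLAG lists, within its 60.3 kb span and the flanks, a mean of 26.7 ± 7.19 kb (SD, n = 4 lists). This placed HNRNPC at rank 2 of all protein-coding genes by tag-covered bases. The peaks covered 59.0%, 30.5%, 50.3% and 41.2% of its body in the same order of lists. Its 18 tag sites all lay off H3K4me3, between 5.31 kb and 49.6 kb from the gene start, while H3K4me3 covered 1.71 kb in the control list and 1.98 kb in the FOXD2 list. No MLL4 list had a peak at HNRNPC. H3K4me1 was present in every list at 5 of the 18 sites and in no list at 1.

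TRA2B, which binds GA-rich exonic enhancers, was the second most covered member. Its tag peaks covered 19.9 kb and 7.55 kb in the 6xHis lists and 15.1 kb and 10.95 kb in the FLAG lists. The share of its body under tag peaks was 74.9%, 31.8%, 61.5% and 39.6%, the highest of the members as a mean (51.9%) and in replicate 1 of each tag, but not in 6xHis replicate 2, where SRSF3 had 43.3%, or in FLAG replicate 2, where TRA2A had 45.4%. One site of 11207 bp (chr3:185920290-185931496) lay from 6.52 kb to 17.7 kb downstream of the start, off H3K4me3. H3K4me1 peaks of all 4 lists overlapped it, mainly in the part nearer the start. TRA2B also had 2 sites at H3K4me3 within 3.82 kb of the start, of which the farther lay 78.0% outside H3K4me3 peaks. Its paralog TRA2A was covered by 11.4 kb, 6.13 kb, 9.74 kb and 12.8 kb, with 6 sites that all lay off H3K4me3. In contrast to TRA2B, 5 of these 6 sites overlapped no H3K4me1 peak of any list. The TRA2 genes thus shared the body coverage but not the H3K4me1 peaks beneath it.

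**Figure D1:**
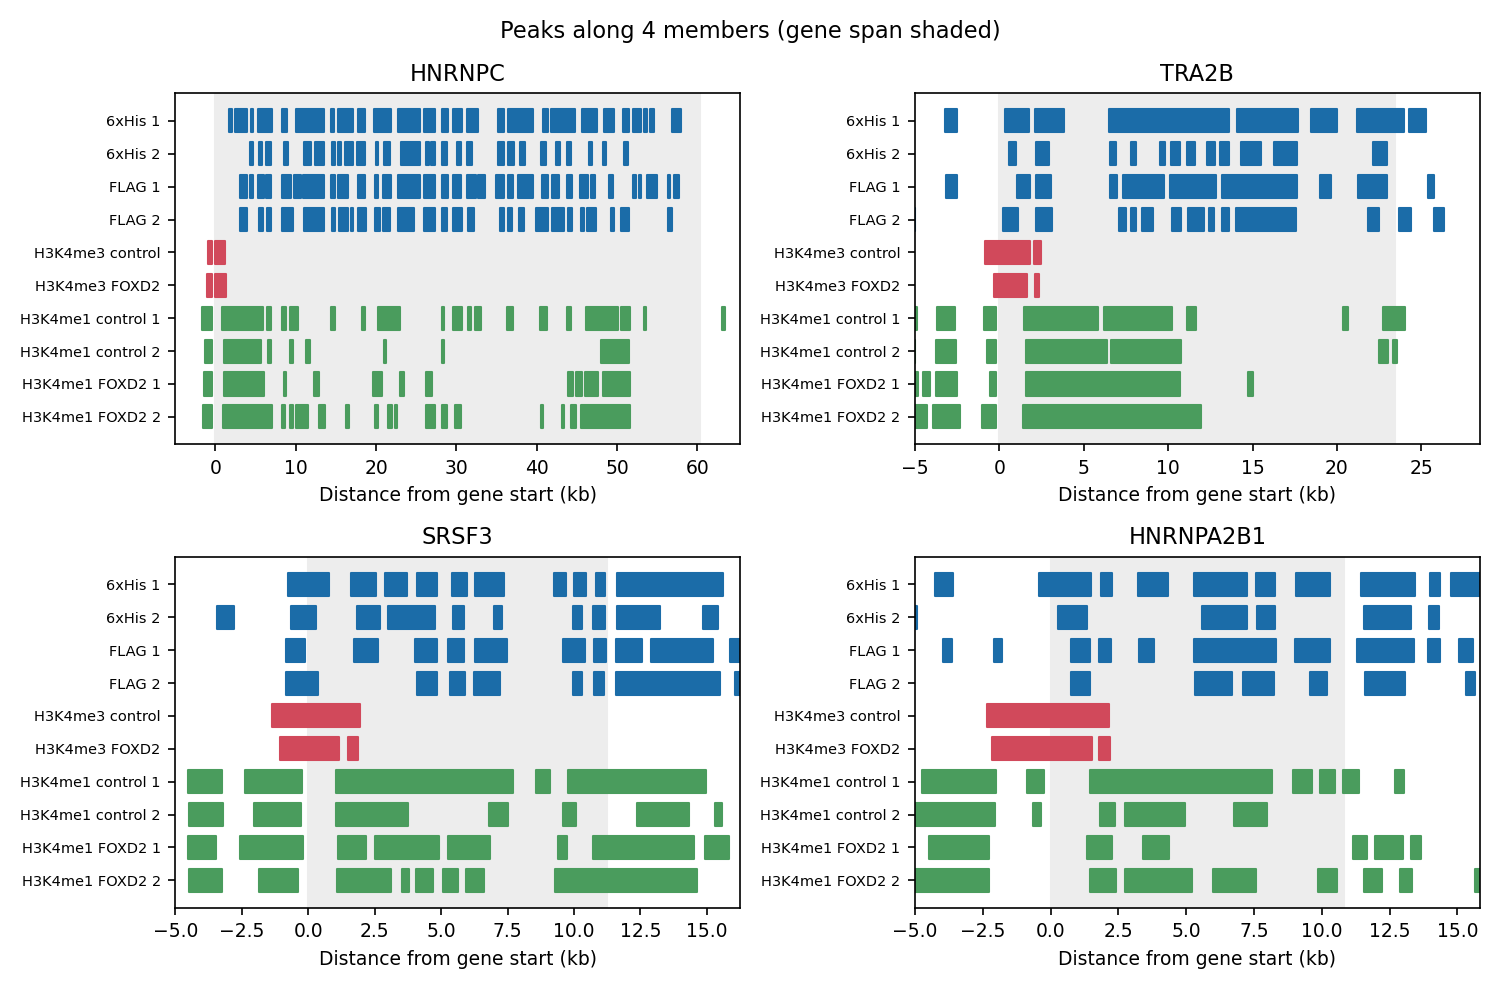
Peaks of the tag lists (blue), the H3K4me3 lists (red) and the H3K4me1 lists (green) along HNRNPC, TRA2B, SRSF3 and HNRNPA2B1, by distance from the gene start in kb; the gene span is shaded and each row is 1 list. Tag peaks of HNRNPC run along the span beyond the H3K4me3 peaks at the start, over 30.5% to 59.0% of its body, and the 11207 bp site of TRA2B begins 6.52 kb from the start.

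SRSF3, the smallest SR protein and an adaptor for mRNA export, was the only SR gene (SRSF1 to SRSF12) whose body was covered by at least 25% in every tag list. Its tag peaks covered 10.97 kb, 7.93 kb, 9.15 kb and 8.26 kb, the narrowest spread among the 4 members that passed that threshold. They covered 55.3%, 43.3%, 48.7% and 32.3% of the body. Of its 8 sites, 1 lay over the promoter printed above and 7 lay off H3K4me3. The last 2 sites were downstream of the gene, reaching 19.6 kb from its start. HNRNPA2B1, which reads sorting and methylation signals in RNA, had 11.5 kb and 5.54 kb in the 6xHis lists and 9.72 kb and 5.64 kb in the FLAG lists. Its 4 sites comprised 1 at the gene start, 1 inside the body and 2 downstream. At the start site only the 6xHis replicate 1 peak reached the promoter window, and the peaks of the other lists began inside the gene. The site farthest downstream overlapped the neighbouring gene NFE2L3. Both genes therefore had sites at and off H3K4me3.

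With spread defined as at least 25% of the body covered in each of the 4 tag lists, 4 of the 33 members passed (HNRNPC, TRA2B, SRSF3 and HNRNPA2B1). The same held for 0.278% of the 19074 genes with a body of at least 1 kb. Just inside the threshold was HNRNPA2B1, with 26.8% in its lowest list, and just outside were TRA2A with 22.4% and HNRNPK with 21.3%. The lowest list of all 4 was 6xHis replicate 2 for HNRNPC, TRA2B, HNRNPA2B1, TRA2A and HNRNPK, and this was the shortest tag list. Without it, 6 members passed. At 10% of the body 12 members passed, and at 50% none of the 33 did. Shares of all genes were not computed for these alternatives.

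**Figure D2:**
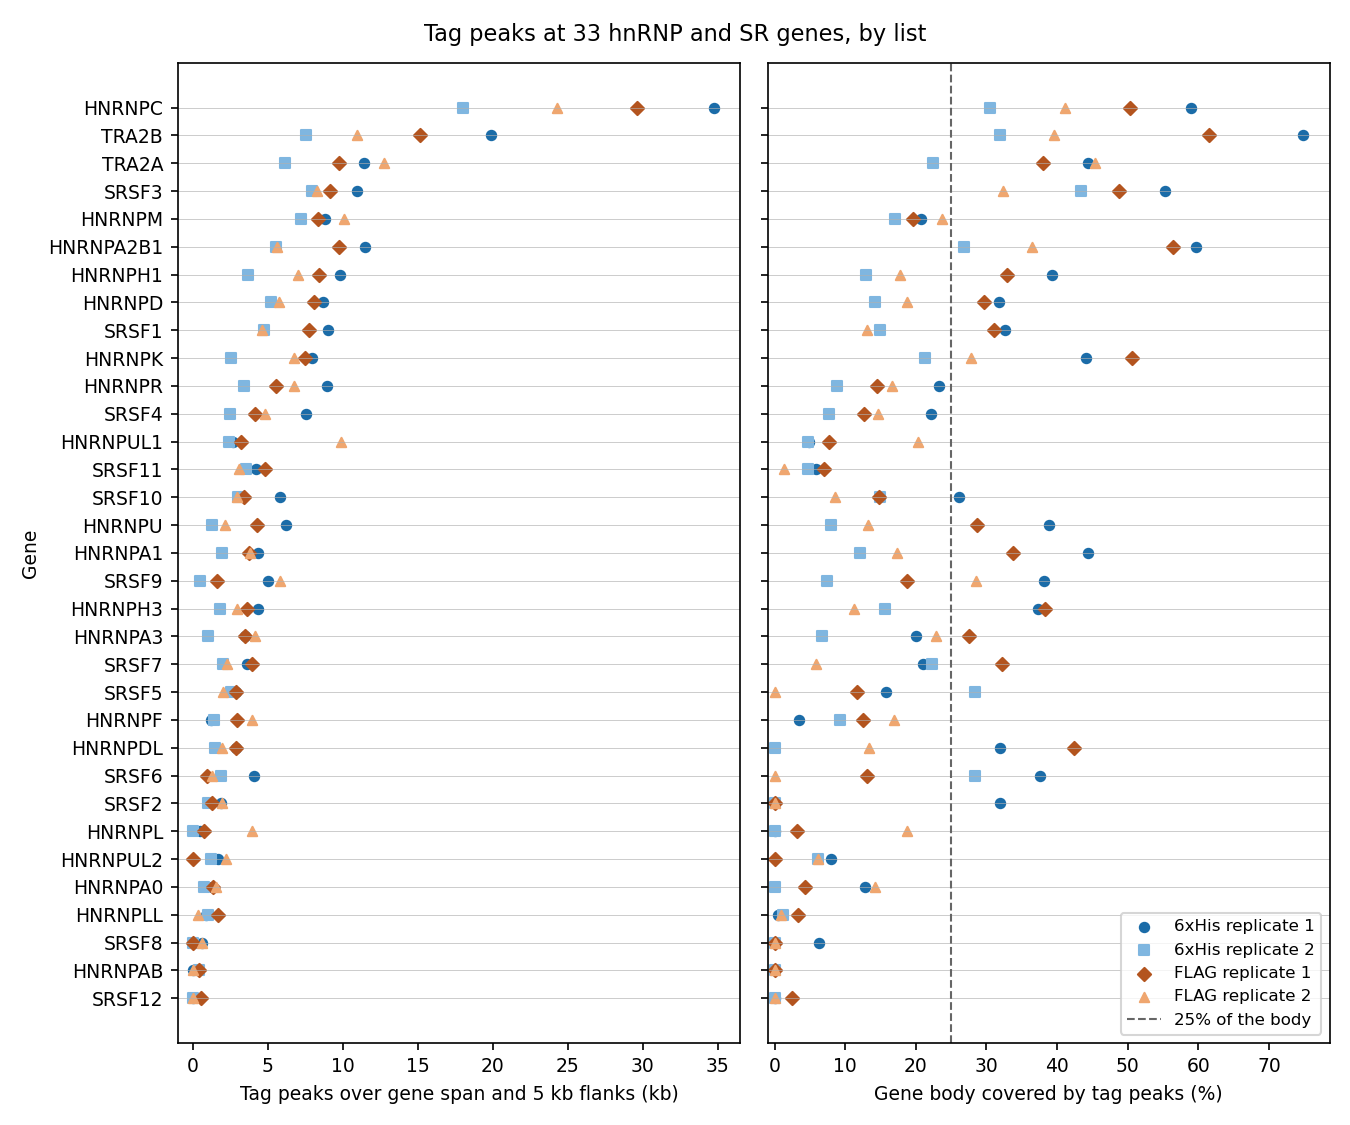
Kilobases covered by tag peaks over the span and 5 kb flanks (left) and the share of the gene body covered in % (right) for the 33 members, with 1 symbol per tag list. HNRNPC reaches 34.8 kb, and 4 members lie right of the dashed 25% line in all 4 lists.

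HNRNPM, an RNA-binding protein of GU-rich sequence, had tag peaks over 8.80 kb, 7.22 kb, 8.33 kb and 10.1 kb and 3 sites, all off H3K4me3. Spread over a 44.1 kb span, they covered 20.3% ± 2.79 of the body (SD, n = 4 lists). HNRNPH1, which binds G-tracts, had 9.83 kb, 3.69 kb, 8.43 kb and 7.03 kb over its span and flanks. Neither H3K4me3 list had a peak over its promoter window, though H3K4me3 covered 4.25 kb (control) and 4.47 kb (FOXD2) elsewhere in its span and flanks. HNRNPH1 was thus measured from a start without H3K4me3. It had 2 sites, one of 4806 bp near the end of the gene (chr5:179614663-179619468) and one that began at the gene's end and ran downstream to 24.1 kb from the start. HNRNPD, also known as AUF1, a factor of AU-rich element mRNA turnover, had 8.68 kb, 5.24 kb, 8.10 kb and 5.76 kb. It had 5 sites, 3 off and 2 at H3K4me3. In all 3 genes, most tag-covered bases lay outside H3K4me3 peaks, with means of 8.61 kb outside at HNRNPM, 7.09 kb at HNRNPH1 and 5.08 kb at HNRNPD. HNRNPK, a KH-domain protein of cytosine-rich RNA, had 7.94 kb, 2.56 kb, 7.49 kb and 6.72 kb and covered 35.9% ± 13.7 of its body.

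The families overlapped widely. Tag sites were found at 14 of 19 hnRNP genes and 12 of 14 SR and TRA2 genes, and 2 genes of each group were spread. The share of the body under tag peaks, as a mean of 4 lists, had a median of 20.3% over the hnRNP genes and 17.9% over the SR and TRA2 genes. Among hnRNP A/B and D genes it ranged from 44.8% at HNRNPA2B1 to 0% at HNRNPAB, which encodes an A/B-type protein. HNRNPAB had tag peaks in only 1 list of each tag, in the flanks and not in the span. In the F/H group the range was narrower, from 25.7% at HNRNPH1 to 10.5% at HNRNPF, another binder of G-tracts. In the L, M and R group it ran from 20.3% at HNRNPM to 1.48% at HNRNPLL, known for the splicing of CD45 in lymphocytes. In the U group it ran from 22.2% at HNRNPU, a chromatin-associated RNA-binding protein, to 5.09% at HNRNPUL2. Among SR genes it ran from 44.9% at SRSF3 to 0.63% at SRSF12, which had 0.54 kb of tag peaks in FLAG replicate 1 and none in the other lists. SRSF12 also had the least H3K4me3 of the 33, at 0.643 kb in control and 0.658 kb in FOXD2 cells.

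Across members, tag sites fell mostly away from H3K4me3. Of 81 sites at members, 68 (84.0%) were off and 13 were at H3K4me3. A few genes weighed heavily in this share, as HNRNPC held 18 of the sites off H3K4me3, SRSF3 7 and TRA2A 6. Over all 5399 tag sites, 61.3% were off and 32.7% at H3K4me3. Member sites were 476 to 11207 bp wide, with a median of 1631 bp against 1214 bp for all sites. They overlapped the span of the member in 69 cases and lay only in the flank in 12, and 6 overlapped another protein-coding gene. No site was shared by 2 members.

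Measured in bases, most tag coverage lay outside H3K4me3 at members and at other genes alike. Of the bases under tag peaks at members, 88.8% and 86.4% in the 6xHis lists and 92.7% and 84.9% in the FLAG lists lay outside H3K4me3, a mean of 88.2% ± 3.38 (SD, n = 4 lists). Over all protein-coding genes the mean was 82.7% ± 8.51. List by list, all genes had 88.9% and 81.1% in the 6xHis lists and 89.6% and 71.4% in the FLAG lists, so the members were higher in 3 lists and level in 6xHis replicate 1. H3K4me3 peaks covered a larger part of the members, whose median was 15.3% of the span with flanks against 6.34% for genes with H3K4me3 in both lists.

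**Figure D3:**
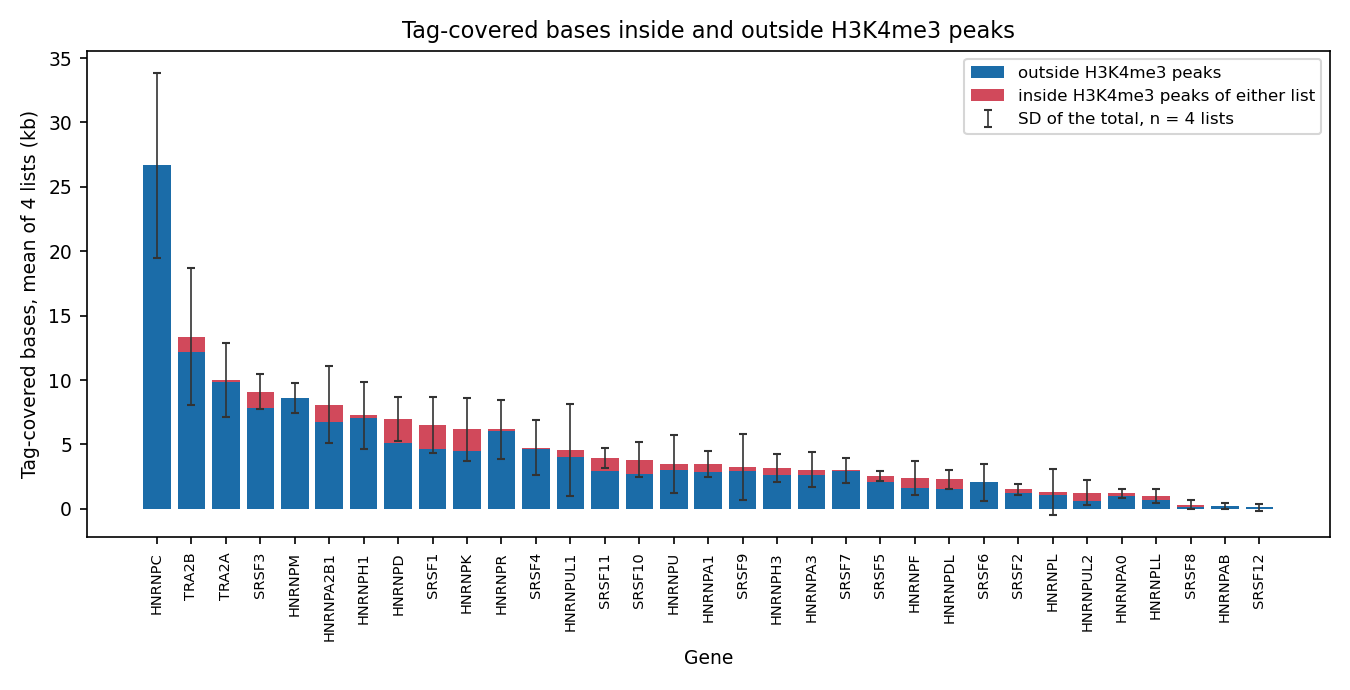
Mean kilobases under tag peaks per member, split into bases outside (blue) and inside (red) H3K4me3 peaks of either list; error bars are the SD of the total over 4 tag lists. HNRNPC has 26.7 kb, all outside H3K4me3, and the red part is at most 1.88 kb, at SRSF1.

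Along the 30 members with a known strand, tag coverage did not follow H3K4me3 into the gene. In the 500 bp before the start, H3K4me3 peaks covered 85.8% and tag peaks 17.8%, from 3.13% to 31.6% over the tag lists. Within the gene, H3K4me3 peaks covered 87.2% of the first 5% of the gene, 46.6% of the part from 5% to 25%, and 6.77%, 2.64% and 0.07% of the parts from 25% to 50%, 50% to 75% and 75% to 100%. Tag peaks covered 10.1% ± 7.1 of the first 5%, 12.9% ± 3.77 of the next part, and then 22.7% ± 6.06, 21.3% ± 6.07 and 18.0% ± 7.80 (SD, n = 4 lists). In the first 5% the tag lists differed widely, from 1.65% to 18.9%, so the lower mean there does not hold for each list. In genes with H3K4me3 in both lists, tag peaks covered 8.23% of the 500 bp before the start, 4.70% of the first 5% of the gene and between 1.87% and 2.39% of each later part. H3K4me1 in the members covered 15.6% of the first 5%, 47.1% of the next part and 43.8%, 19.5% and 11.7% of the later parts. MLL4 covered 8.46% ± 7.45 of the first 5% and at most 0.695% of any later part.

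**Figure D4:**
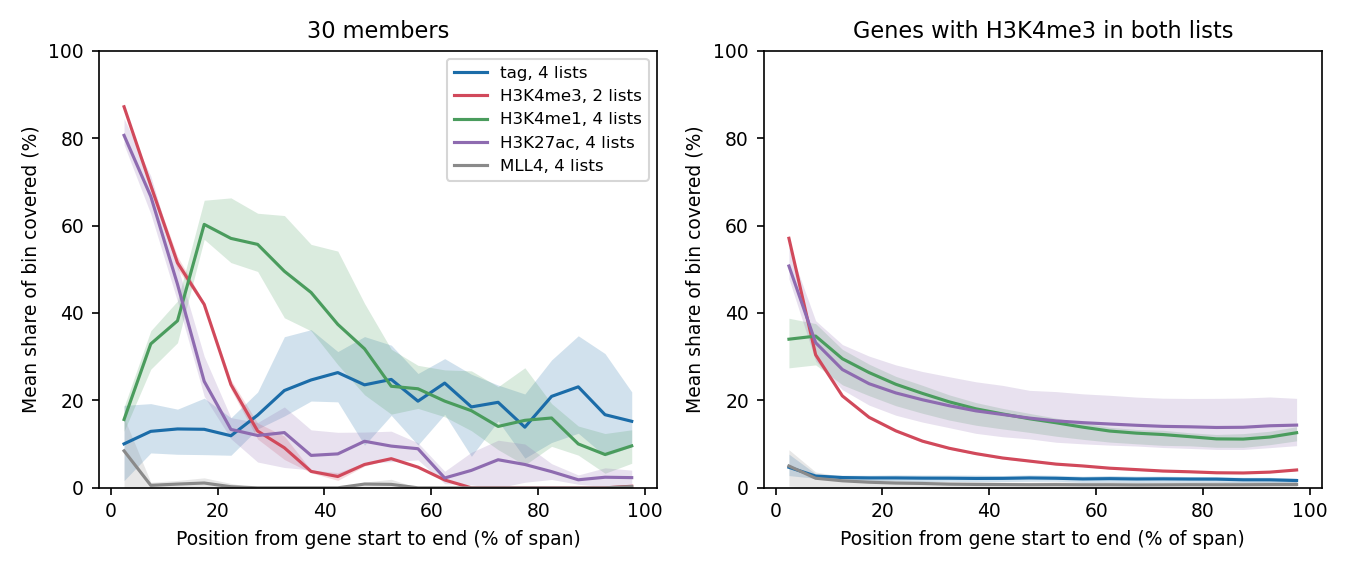
Mean share of each of 20 bins from gene start to gene end (% of span, x axis) covered by peaks (%, y axis), in 30 members and in genes with H3K4me3 in both lists; lines are means over lists and bands run from the lowest to the highest list. In members, tag coverage is 10.1% in the first 5% and 22.7% from 25% to 50%, where H3K4me3 has dropped to 6.77%.

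The 68 member sites off H3K4me3 carried H3K4me1 more often than other marks. At least 1 H3K4me1 list had a peak at 53 of them (77.9%, against 61.3% of all tag sites off H3K4me3), but all 4 lists did at only 20 (29.4% against 40%). H3K27ac was present in any list at 14 (20.6% against 40.7%) and MLL4 at 1 (1.47% against 11.8%), the site at HNRNPA1, with MLL4 in 3 lists. No histone mark of any list lay at 13 sites (19.1% against 34.6%). At the 13 member sites at H3K4me3, H3K27ac was present in all 4 lists at 12 (92.3%, against 78.5% of all tag sites at H3K4me3) and MLL4 in at least 1 list at 8 (61.5% against 59.0%, near the background). These shares are descriptions, since sites of 1 gene share their surroundings.

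H3K4me1 at the members was compared between FOXD2 and control cells as kilobases under peaks in the span and flanks. Of 33 members, 6 had both FOXD2 lists above both control lists and 4 had both below, against 39.8% and 12% of the 17043 genes with a peak. SRSF4, a large SR protein, showed the largest gain, with 5.93 kb and 4.02 kb in control and 7.54 kb and 8.99 kb in FOXD2 lists. HNRNPUL1, linked to the response to DNA breaks, had 6.53 kb and 5.86 kb in control and 8.22 kb and 6.91 kb in FOXD2 lists. HNRNPM had 14.2 kb and 12.1 kb against 14.2 kb and 14.6 kb, and HNRNPA1, a repressor of exon inclusion, 9.91 kb and 8.76 kb against 10.2 kb and 10.8 kb, so their gaps between groups were small. Fewer bases in FOXD2 lists were found at HNRNPLL (9.90 kb and 6.44 kb against 3.94 kb and 4.74 kb) and HNRNPK (7.06 kb and 4.49 kb against 2.25 kb and 2.93 kb). HNRNPU (5.11 kb and 3.35 kb against 2.92 kb and 2.60 kb) and SRSF7, an SR protein with a zinc knuckle (4.48 kb and 3.68 kb against 3.42 kb and 2.57 kb), were lower too. Each exact two-sided permutation p was 0.33, the smallest that 2 lists against 2 allow, so none of these differences could pass a test. The members' share of higher genes, 18.2%, was below the background, and that of lower genes, 12.1%, was near it. Both FOXD2 lists were longer (114893 and 129887 peaks) than both control lists (101204 and 95756). At equal list lengths 5 members were higher and 5 lower, against 34.9% and 16.2% of the 16854 genes with a peak. With fewer lists to exceed, the count of higher members was 25 without control replicate 1 and 14 without FOXD2 replicate 1. The count of lower members was 16 without control replicate 2. Shares of all genes were not computed with a list left out, so these counts have no background. Among the 4 genes with spread tag peaks, the H3K4me1 groups of all overlapped, as at HNRNPC with 22.2 kb and 10.8 kb in control and 15.5 kb and 21.2 kb in FOXD2 lists.

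H3K27ac was higher in both FOXD2 lists at 11 of 33 members and lower at 1, against 29.7% and 4.44% of the 17019 genes with a peak, so both shares were near the background. HNRNPF had the largest gain, with 13.1 kb and 15.03 kb in control and 20.2 kb and 17.0 kb in FOXD2 lists. HNRNPAB had 3.90 kb and 3.08 kb against 4.43 kb and 7.24 kb. SRSF2, an SR protein also tied to transcription elongation, had 1.81 kb and 2.32 kb against 3.98 kb and 4.55 kb, the widest gap relative to its control level among these genes. HNRNPR, a relative of the mRNA-binding SYNCRIP, had 3.33 kb and 2.89 kb against 5.59 kb and 4.11 kb. HNRNPD was the lower one, with 4.32 kb and 5.46 kb against 4.29 kb and 3.98 kb, with the nearest control and FOXD2 lists almost level. Of the genes with spread tag peaks, only HNRNPC had groups that did not overlap, with 2.59 kb and 3.48 kb in control and 4.42 kb and 5.04 kb in FOXD2 lists. The exact p was again 0.33 at best. The count of higher members was 17 without control replicate 1, 17 without control replicate 2 and 20 without FOXD2 replicate 2. That of lower members was 4 without control replicate 1 and 5 without control replicate 2. It was 7 without FOXD2 replicate 1 and 4 without FOXD2 replicate 2. The matching shares of all genes were not computed.

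MLL4 peaks lay at 21 and 14 of the 33 members in control replicates 1 and 2 (63.6% and 42.4%, against 43.6% and 35.9% of all genes). In FOXD2 replicates 1 and 2 they lay at 20 and 2 members (60.6% and 6.06%, against 49.7% and 13.2%), and FOXD2 replicate 2 was the shortest MLL4 list. Of the 27 members with a peak in any list, 0 were higher in both FOXD2 lists and 5 were lower, against 2.04% and 16.7% of 12409 genes. The lower share of the members, 18.5%, was near the background. HNRNPA2B1 had 1.09 kb and 0.446 kb in control and no peak in FOXD2 lists. HNRNPH1 had 0.949 kb and 0.371 kb against 0.366 kb and 0, HNRNPK 0.524 kb and 0.280 kb against 0 in both, and HNRNPLL 0.278 kb and 0.260 kb against 0 in both. The fifth was HNRNPR. These counts rested on single lists. Without FOXD2 replicate 2, 11 members were higher and 5 lower, and without control replicate 1, 1 was higher. Lower members numbered 14 without control replicate 2 and 10 without FOXD2 replicate 1. No share of all genes was computed with a list left out. Once the lists had been brought to equal length, 0 members were lower, against 18.8% of the 5860 genes that kept an MLL4 peak. How many of the 27 members kept a peak there was not counted.

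**Figure D5:**
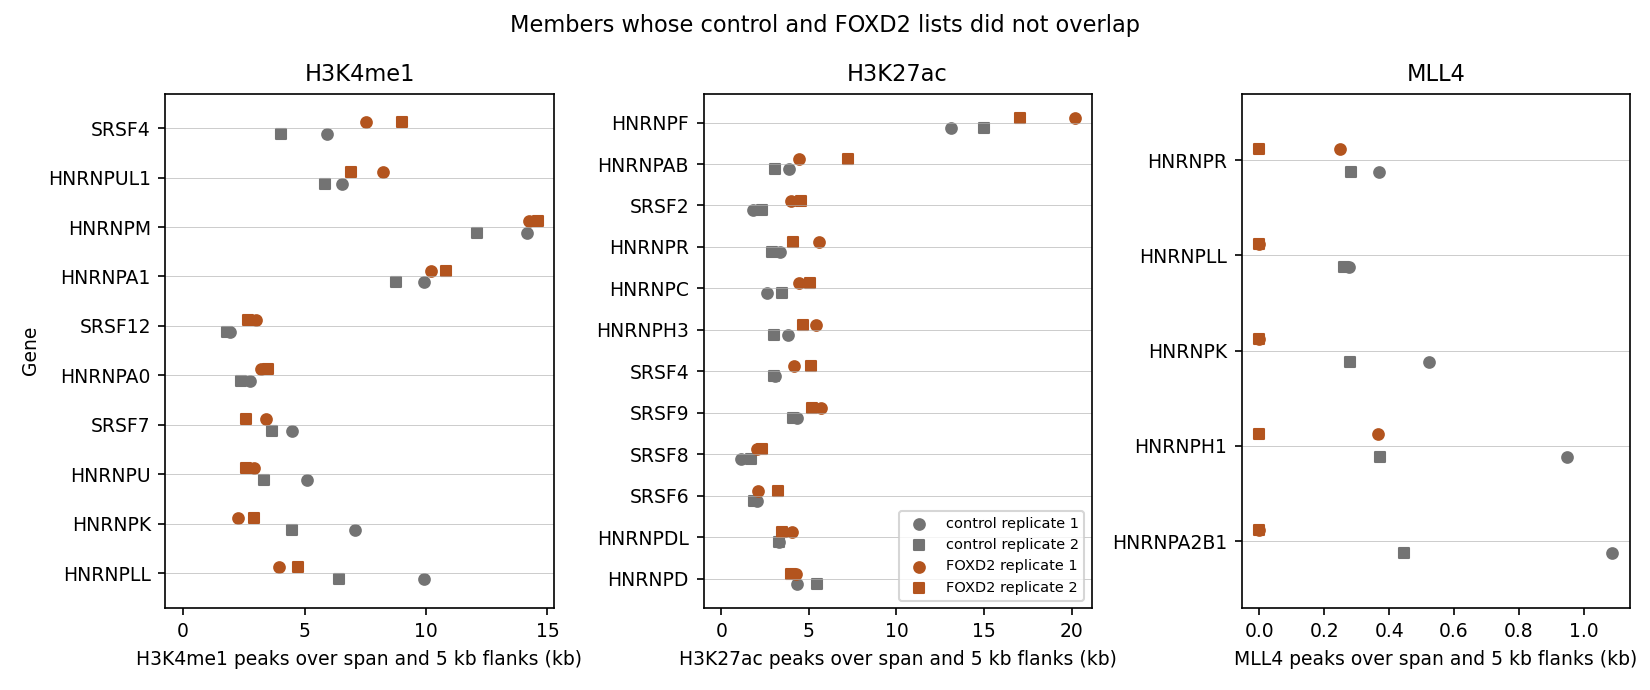
Kilobases under H3K4me1, H3K27ac and MLL4 peaks over the span and 5 kb flanks for the members whose 2 control lists (grey) and 2 FOXD2 lists (orange) did not overlap; circles are replicate 1 and squares replicate 2. For H3K27ac 11 members lie higher and 1 lower in FOXD2 lists, and the gaps are narrow at SRSF6, HNRNPD and HNRNPDL.

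H3K4me3, with 1 list per group, allowed no test. The kilobases under H3K4me3 peaks were lower in the FOXD2 list at 24 of 33 members (72.7%, against 64.1% of genes with H3K4me3 in both lists), with a median FOXD2 to control ratio of 0.966 against 0.971 over those genes. The ratio of the members ran from 0.731 to 1.21. TRA2B had the lowest, with 3.08 kb in control and 2.26 kb in FOXD2 cells, and SRSF3 the next lowest with 3.34 kb and 2.59 kb.

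Genes of the same machinery outside the member list were counted in the same way, by lists that were also drawn up with results of these data known. Tag sites were found at 7 of 18 hnRNP relatives of other names, 5 of 9 SR protein kinases, 8 of 13 SR-related proteins, 4 of 30 core snRNP proteins and 6 of 15 tissue regulators of splicing. Sites off H3K4me3 were found at 6, 3, 7, 4 and 5 of them. Spread tag peaks were seen at 2 hnRNP relatives, 1 kinase and 2 SR-related genes, and at none of the snRNP core or tissue regulator genes. Among all genes, 15.5% had a tag site and 8.63% had one off H3K4me3. Spread was found at 0.278% of genes with a body of at least 1 kb. The snRNP core, with a site at 13.3%, was near all genes and below the 21.4% of genes with H3K4me3 in both lists. EWSR1, an RNA-binding protein of the FET family, had 18.6 ± 2.08 kb under tag peaks, with 50.6% to 67.6% of its body covered. PCBP2, which binds cytosine-rich RNA, had 17.0 ± 3.38 kb, and CLK1, a nuclear kinase of SR proteins, 9.08 ± 1.49 kb. RBM39, a relative of U2AF, had 20.9 ± 4.64 kb and LUC7L3, a protein of the U1 snRNP, 17.9 ± 3.21 kb (SD, n = 4 lists). SF3B1, which contacts the branch point, had 12.5 ± 3.18 kb under tag peaks and 7 sites off H3K4me3, with 19.6% of its body covered in its lowest list. The tag-covered median was 3.48 kb over the members, 2.75 kb over SR kinases, 2.25 kb over SR-related genes and 1.76 kb over hnRNP relatives. It was 0.844 kb over the snRNP core, 0.188 kb over tissue regulators and 0.172 kb over all genes.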

How the data were processed

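Peak lists of 18 libraries were used: 4 each of H3K4me1, H3K27ac, MLL4 and the tags, and 2 of H3K4me3. Histone marks came from native MNase-cut chromatin, MLL4 and tags from crosslinked sonicated chromatin, per the labels' protocols. MACS2 2.2.7.1, bedtools, Picard, Bowtie2 2.3.4.1 and cutadapt 3.4 are named, with hg38, in the submitters' processing notes. The authors deposited 1 list per library, giving each peak's fold as a ratio and its p and q on the −log10 scale, which served here only to filter or rank peaks within a list. The depth and the background library of each call are not given in the sources used here. Some peak names carry another replicate number than the sample's title, and titles were followed.

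Members and lists were chosen with earlier results of these data known. Peaks on chromosomes 1 to 22 and X were intersected with RefSeq spans (GRCh38.p14) and 5 kb flanks. Gene starts were span ends by the strand of the promoter table. The kinase listed as PRPF4B was matched through synonyms. Covered bases were compared by exact permutation tests over 2 and 2 lists, whose labels do not say if they were separate cultures. Genes named in full were the 8 members with most tag-covered bases, the extremes of body coverage per family, up to 4 members per mark and direction, and up to 3 genes per other list. Alternatives were a −log10 q of 5, equal list lengths, other merging, flank, H3K4me3, site and body rules, peak numbers, each list left out and a replicate block. Steps were tested on simulated lists with planted calls. Software was scipy 1.17.1, pandas 2.3.3, numpy 2.4.6 and matplotlib 3.10.9 under Python 3.11.15.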

Additional observations from a re-analysis of the deposited data

How the results depend on the processing

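Peak lists without depth limit all values to presence and width of peaks, and the tag lists have no counterpart from untagged cells here. At a −log10 q of 5 or more, 3 members were lower in H3K27ac and 3 in MLL4. The shares were 4.06% of 16289 and 24.8% of 8871 genes with a peak of the mark. At equal list lengths 0 members were lower in MLL4, against 18.8% of 5860 such genes. A rule of 3 or 2 tag lists gave 19 and 24 members with a site at H3K4me3. Requiring 50% of the region in each list gave 9 members with a site, 0 with one at and 9 with one off H3K4me3. With no flank, the share of tag bases outside H3K4me3 was 91.8%, H3K4me1 was higher at 3 members, H3K27ac lower at 3 and MLL4 lower at 3; with 10 kb, H3K27ac was lower at 0. Spread counts were 12 at 10% and 0 at 50% of the body. By number of peaks, H3K4me1 was higher at 3 members and H3K27ac lower at 0. Shares of all genes were not computed under the 2-list, flank, body and peak-number rules, so those counts have no background. The cause of these shifts was not tested.

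Leaving out 1 list at a time gave 26 to 27 members with a site, 9 to 14 with one at and 22 to 25 with one off H3K4me3, 4 to 6 spread, and 86.7% to 89.3% of tag bases outside H3K4me3. Members with H3K4me1 higher ranged from 6 to 25 and lower from 4 to 16, H3K27ac higher from 16 to 20 and lower from 4 to 7, and MLL4 higher from 0 to 11 and lower from 5 to 14. These counts grow by construction when a group has 1 list to exceed. Shares of all genes were not computed for any list left out.

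The replicate block called FOXD2 above or below control within each number. In H3K4me1, 8 members were higher and 5 lower, against 45.7% and 18.8% of the 17043 genes with a peak. In H3K27ac, 15 were higher and 3 lower, against 32.7% and 5.85% of 17019 such genes. In MLL4, 1 was higher and 7 lower, against 2.98% and 24.0% of 12409 such genes. Deviations of same-numbered lists correlated at 0.09 for H3K4me1, -0.60 for H3K27ac and 0.11 for MLL4 across genes, and the labels do not say that a number marks a shared culture or day. Crossing the H3K27ac numbers, a choice made after seeing the data, gave 16 higher and 3 lower (53.6% and 11.2% of the same 17019 genes).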
